A study of Homo sapiens with 8 samples.

Results

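The endogenous HoxC5 sites described here were the peaks of unmodified PC-3 cells that were also called after HoxC5 overexpression and after Pbx4 overexpression. PC-3 is an established human cell line from prostate cancer. The intervals of the 2 endogenous HoxC5 peak lists were merged, and a merged interval on chromosomes 1 to 22 or X was kept where at least 1 bp of it overlapped a peak of each overexpressed list. This left 1587 shared sites of 2555 endogenous peaks (62.1%, exact Clopper-Pearson 95% interval 60.2 to 64.0%). The sites were thus selected on measured values, the called intervals of all 4 ChIP libraries. Overlap with the overexpressed lists, fold enrichment, q-value and width are therefore descriptions here and carry no test. The overlap of replicate 1 peaks with replicate 2 was tested, on a split that used no replicate 2 peak. Position in the genome and DNA sequence did not enter the rule and were tested. The overexpressed lists have positions and words of their own, however, and differences from the endogenous peaks left out cannot be separated from these. Regions are not replicates of a condition: every test compares regions of these libraries, and each overexpression was sequenced as 1 ChIP library.

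The 2 endogenous libraries were immunoprecipitated with an anti-HoxC5 antibody from PC-3 cells that the labels call endogenous and control. Nothing in the sources used here says that the replicates came from separate cultures. The overexpressed (OE) HoxC5 library came from PC-3 cells with overexpressed Flag-tagged HoxC5, introduced by a lentivirus with a CMV promoter, and used the same antibody. The OE Pbx4 library came from PC-3 cells with overexpressed Flag-tagged Pbx4 from the same kind of vector and used an anti-Pbx4 antibody. No expression data were used here to check the cells or the overexpression. The lists differed widely in length, with 2520 peaks in endogenous replicate 1, 170 in replicate 2, 67169 in OE HoxC5 and 153551 in OE Pbx4 on the chromosomes used. Replicate 1 therefore supplied 1559 of the shared sites, 28 rested on replicate 2 alone, and 101 had a peak in both replicates. The depth of each library is not given by the lists, and the share of peaks found again cannot be separated from it.

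HoxC5 is a homeodomain transcription factor of the HOXC cluster, whose genes set position along the body axis in development. Pbx proteins belong to the TALE class of homeodomain factors and bind DNA together with many Hox proteins, at composite sites in which the Pbx element TGAT lies beside a Hox element. AP-1, a dimer of Fos and Jun family proteins, binds TGACTCA and is common at active enhancers. Forkhead factors such as FOXA1 read GTAAACA, RUNX factors read TGTGGTT, E2-box factors (E proteins, and repressors such as ZEB1 and SNAI2) read CAGGTG, and Sp and KLF factors read GC-rich promoter boxes such as CCCCGCCC.

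The DNA at the endogenous summits shows which of these words the sites held. Each stretch below is 101 bases of GRCh37 (hg19), plus strand, 5′ to 3′, with the endogenous summit at its centre. Capitals mark words of the AP-1, E2-box, forkhead, RUNX, Hox-Pbx and Sp/KLF families on either strand, so that TGAGTCA is the AP-1 word, TGTTTAC the forkhead word, AACCACA the RUNX word and CACCTG the E2-box read on the opposite strand. The first set is the 2 strongest sites by replicate 1 q with peaks in both replicates and an AP-1 word, shown because AP-1 was the most common word at the shared sites.
ABCA17P intron, chr16:2438978-2439078: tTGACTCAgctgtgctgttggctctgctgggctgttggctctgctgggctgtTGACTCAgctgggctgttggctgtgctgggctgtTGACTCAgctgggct
NRP1, 728 bp upstream of the nearest TSS, chr10:33553310-33553410: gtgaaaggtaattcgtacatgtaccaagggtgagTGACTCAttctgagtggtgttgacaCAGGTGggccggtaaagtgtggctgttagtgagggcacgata
The ABCA17P window held the AP-1 word 3 times within a stretch that repeats itself.

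The second set has the strongest sites with a forkhead word, and the strongest with a RUNX and an AP-1 word in the same 101 bases.
between genes, 21.9 kb upstream of MUC16, chr19:9142868-9142968: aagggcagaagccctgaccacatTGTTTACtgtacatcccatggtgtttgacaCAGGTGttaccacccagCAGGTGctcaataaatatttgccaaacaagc
between genes, nearest protein-coding TSS that of SOX2, chr3:181930340-181930440: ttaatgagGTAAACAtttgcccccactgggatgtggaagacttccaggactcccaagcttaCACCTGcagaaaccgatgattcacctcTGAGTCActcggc
between genes, nearest protein-coding TSS that of CD200R1L, chr3:112492894-112492994: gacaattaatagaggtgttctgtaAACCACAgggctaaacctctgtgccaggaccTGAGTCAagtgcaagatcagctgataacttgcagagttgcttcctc
JMJD1C intron, chr10:64996298-64996398: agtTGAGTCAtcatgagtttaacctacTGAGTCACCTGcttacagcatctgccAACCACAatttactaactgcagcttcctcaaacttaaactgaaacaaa
The JMJD1C window held the AP-1 word 2 times, an E2-box that shared letters with one of them, and the RUNX word. The TSS of SOX2 was 501 kb from its site and that of CD200R1L 71.8 kb from its own.

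The third set is the 3 strongest sites with a composite Hox-Pbx word (TGATTGAT, TGATTAAT or TGATTTAT), the sequence that HoxC5 with a Pbx partner would be looked for at.
XRCC4 intron, chr5:82561213-82561313: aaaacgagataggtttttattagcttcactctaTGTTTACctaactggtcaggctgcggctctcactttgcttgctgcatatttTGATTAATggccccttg
MIDEAS intron, chr14:74219452-74219552: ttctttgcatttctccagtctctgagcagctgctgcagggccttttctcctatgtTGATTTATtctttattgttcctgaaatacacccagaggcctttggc
between genes, 10.5 kb upstream of PRKCD, chr3:53179477-53179577: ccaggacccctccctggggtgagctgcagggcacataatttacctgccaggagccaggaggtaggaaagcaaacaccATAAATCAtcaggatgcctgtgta
The last set shows a promoter with Sp/KLF words and the site upstream of hTERT, the gene of the telomerase catalytic subunit. At hTERT the capitals mark AGAACA, a word of steroid receptors and the single searched word in that window.
PIM1, 96 bp upstream of the TSS, chr6:37137782-37137882: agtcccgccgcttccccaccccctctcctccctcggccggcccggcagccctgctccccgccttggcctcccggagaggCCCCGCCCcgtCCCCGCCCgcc
upstream of hTERT, chr5:1316427-1316527: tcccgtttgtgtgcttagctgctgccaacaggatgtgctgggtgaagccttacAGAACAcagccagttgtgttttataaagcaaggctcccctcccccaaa

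The AP-1 word was the commonest of the words that set the shared sites apart from their surroundings. It lay within 50 bp of the summit at 355 of the 1587 sites (22.4%). In windows of the same length 1 kb to the right it was present at 33 (2.08%). It was at the summit alone at 349 sites and in the flank alone at 27 (two-sided exact McNemar test, adjusted over 22 words, p = 3.70e-71). Of 56715 windows placed every 50 kb along the genome, 1.46% held the word.

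Of the 22 words searched, 7 were more frequent at the summits than in the flank and 1 was less frequent. The forkhead word was at 126 summits (7.94%) and 25 flanks (1.58%, adjusted exact p = 6.69e-17). The E2-box was at 291 summits (18.3%) and 158 flanks (9.96%, adjusted exact p = 9.04e-11). The RUNX word was at 94 summits (5.92%) and 30 flanks (1.89%, adjusted exact p = 1.04e-08). The promoter words were rarer but also higher at summits. The Sp/KLF word was at 2.90% of summits and 0.819% of flanks (adjusted exact p = 5.78e-05). The ETS word CCGGAAG, read by factors such as ELK1 and GABPA, was at 1.95% and 0.567% (adjusted exact p = 0.00215). The E-box CACGTG of the MYC family was at 2.58% and 0.945% (adjusted exact p = 0.00215). In contrast, the homeodomain word TAATTA was rarer at the centre, with 29 summits (1.83%) and 58 flanks (3.65%, adjusted exact p = 0.00531), but against the flank 1 kb to the left the difference did not pass (adjusted exact p = 0.646).

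Composite Hox-Pbx words were scarce. TGATTGAT was at 5 summits and 2 flanks, TGATTAAT at 6 and 7, and TGATTTAT at 10 and 5, and none of these differences passed the McNemar test (adjusted exact p 0.511 or above). The Meis word TGACAG was at 6.68% of summits and 6.05% of flanks (adjusted exact p = 0.614). The longer Pbx-Meis word TGATTGACA was at 1 summit. Altogether 21 shared sites (1.32%) held a Hox-Pbx word, 20 of them over 1 kb from every transcription start site (TSS), and 2 of the 21 also held the AP-1 word. These 21 sites ranged from 3.22 to 43.0 in OE HoxC5 fold enrichment (median 9.50) and from 4.52 to 18.5 in OE Pbx4 fold enrichment (median 12.9). The strongest of them in the endogenous libraries, in the XRCC4 intron printed above, had a fold of 8.34 in replicate 1, 11.6 in replicate 2, 41.3 in OE HoxC5 and 9.15 in OE Pbx4, and its window also held a forkhead word.

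The words clustered at the summit itself. Within 200 bp of the summits the AP-1 word occurred 905 times, 409 of them within 50 bp and 67 beyond 150 bp. The forkhead word occurred 297 times, 140 within 50 bp and 28 beyond 150 bp. The distribution of the Sp/KLF word was flat by comparison, with 63 of 246 occurrences within 50 bp and 60 beyond 150 bp. The bases next to the AP-1 word were not even: in 390 words read as TGACTCA, T preceded it in 9.74% and G in 33.3%, and A followed it in 9.49% and T in 31.5%. The AP-1 word occurred 2 or more times at 30 shared sites.

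**Figure D1:**
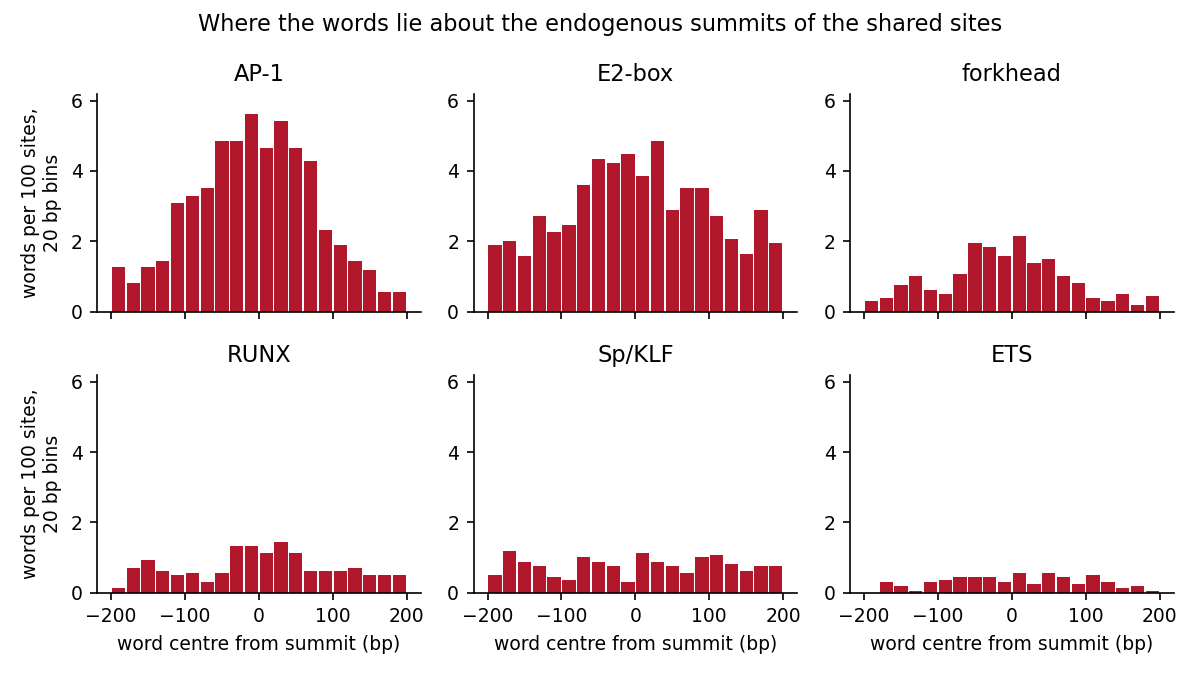
Number of words per 100 shared sites (y axis) in bins of 20 bp by distance of the word's centre from the endogenous summit (x axis, bp), one panel for each factor family. The AP-1, E2-box and forkhead words were most frequent near the summit and the Sp/KLF and ETS words showed no sharp peak.

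No more than a minority of sites held several kinds of word. Counting AP-1, forkhead, RUNX and E2-box words, 880 shared sites (55.5%) held none within 50 bp, 558 held 1 kind, 139 held 2 kinds and 10 held 3 kinds. In the flanks 8 windows held 2 kinds, and on the genome grid 0.418% did. AP-1 and the E2-box were together at 81 sites, which was 22.8% of the sites with AP-1 and 27.8% of those with an E2-box, and at 13 of these the words shared letters. AP-1 and the forkhead word were together at 22 sites, and AP-1 and the RUNX word at 17. The product of the 2 shares would give 28.2 and 21.0 sites for these pairs, and 65.1 for AP-1 with the E2-box. The pairs were not tested.

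Most shared sites lay away from promoters. Of the 1587 summits, 339 (21.4%, 95% interval 19.4 to 23.5%) were within 1 kb of a TSS of the GENCODE annotation. A further 759 (47.8%) were in introns, 52 (3.28%) in exons and 437 (27.5%) between genes. Most, 899 (56.6%), were over 5 kb from every TSS, and 123 were over 50 kb away. The 968 endogenous peaks that were not shared were at promoters more often, 438 of them (45.2%). The difference was −23.9 percentage points (95% interval −27.6 to −20.1, two-sided Fisher's exact test, p = 1.58e-36, adjusted over 3 comparisons 4.73e-36). It was −22.7 points among the regions without an AP-1 word, a comparison chosen after the values were seen.

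The endogenous peaks left out fell into classes that differed from one another. Those overlapping OE HoxC5 but not OE Pbx4 (370 peaks) were promoter peaks in 79.2%. Those overlapping OE Pbx4 but not OE HoxC5 (234 peaks) were at promoters in 17.9%, and the 364 that overlapped neither list in 28.3%. The shared sites were thus nearest in position to the class with Pbx4 alone. In base composition, too, the class with HoxC5 alone stood apart: the median GC content of the windows was 48.5% at shared sites, 49.5% with Pbx4 alone, 52.0% with neither and 70.3% with HoxC5 alone.

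The gained sites were the 43870 OE HoxC5 peaks that overlapped an OE Pbx4 peak and no endogenous peak. They were within 1 kb of a TSS in 18.4%, against 21.4% of the shared sites, a difference of 2.92 points (95% interval 0.945 to 5.04, Fisher's exact test, p = 0.00379, adjusted exact p = 0.00379). This small difference did not pass when each overexpressed list had to cover at least 50% of the endogenous interval (1.32 points, exact p = 0.207) or when every peak needed a fold of at least 5 (1.59 points, exact p = 0.270).

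Against the other endogenous peaks, the shared sites were rich in AP-1, forkhead and RUNX words and poor in promoter words. AP-1 was at 22.4% of shared sites and 5.48% of the other endogenous peaks, a difference of 16.9 points (95% interval 14.3 to 19.4, Fisher's exact test, adjusted over 22 words, p = 5.43e-32). The forkhead word was at 7.94% and 3.20% (adjusted exact p = 4.63e-06) and the RUNX word at 5.92% and 2.07% (adjusted exact p = 1.33e-05). The Sp/KLF word was at 2.90% and 11.2% (adjusted exact p = 7.74e-16). The E2-box did not separate them: it was at 18.3% and 17.7%, a difference of 0.671 points with a 95% interval of −2.45 to 3.69. The classes of other peaks differed, however, with the E2-box at 32.1% with Pbx4 alone, 9.73% with HoxC5 alone and 16.5% with neither. The class with Pbx4 alone was near the shared sites in the forkhead word (7.69%) and low in the Sp/KLF word (1.28%). It held AP-1 at 12.8% and the RUNX word at 3.42%. Against the 968 other peaks together, 7 words were more frequent at the shared sites and 3 less frequent. The Hox word TAATGA was among the higher, at 4.35% and 1.65% (adjusted exact p = 0.000662), and TGATTTAT was at 10 shared sites and at none of the 968 others (adjusted exact p = 0.0369). Neither was more frequent at the shared sites than on the genome grid, where TAATGA was at 6.63% and TGATTTAT at 0.838%, and TAATGA was at 5.04% of the flanks. In the comparison with the others, TAATGA did not pass within 1 kb of a TSS (adjusted exact p = 0.448). TGATTTAT did not pass beyond it (adjusted exact p = 0.170). Most endogenous peaks rested on replicate 1: without it 128 shared sites remained, and the AP-1 difference was 9.26 points and did not pass (adjusted exact p = 0.906).

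Because promoters held different words, the comparison was repeated within each position. Over 1 kb from every TSS, AP-1 was at 24.9% of shared sites and 7.92% of the other endogenous peaks (adjusted exact p = 6.30e-17). Within 1 kb of a TSS it was at 13.0% and 2.51% (adjusted exact p = 4.56e-07). The forkhead word passed in both positions, with 8.57% and 4.91% away from promoters (adjusted exact p = 0.0495) and 5.60% and 1.14% at promoters (adjusted exact p = 0.00377). The RUNX word passed away from promoters, with 7.37% and 2.45% (adjusted exact p = 0.000253). At promoters the RUNX word was in 2 shared sites and 7 others, and the direction was the opposite (adjusted exact p = 0.738). The Sp/KLF word was lower at shared promoters, 10.3% against 22.1% (adjusted exact p = 0.000138), and away from promoters the difference of −1.19 points did not pass (adjusted exact p = 0.209). At promoters the TEAD word ACATTCC was also higher at shared sites, 10 against 1 (adjusted exact p = 0.00855).

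Against the gained sites the order changed. The E2-box was at 18.3% of shared sites and 7.26% of gained sites, a difference of 11.1 points (95% interval 9.24 to 13.1, adjusted exact p = 3.98e-44), and the share at gained sites was close to the 7.63% of the genome grid. The forkhead word was at 7.94% and 3.57% (adjusted exact p = 2.42e-14). AP-1 was slightly less frequent at shared than at gained sites, 22.4% against 26.7% (adjusted exact p = 0.000515), but with windows of 100 bp either side of the summit this difference was −1.79 points and did not pass (adjusted exact p = 0.227). Of the words of homeodomain factors, some were more frequent at the gained sites. TAATGA was at 4.35% of shared and 9.63% of gained sites (adjusted exact p = 6.92e-14), TGATTGAT at 0.315% and 0.889% (adjusted exact p = 0.0269) and TGATTAAT at 0.378% and 0.994% (adjusted exact p = 0.0218). TGATTTAT was at 0.630% and 0.837% (adjusted exact p = 0.586) and TAATTA at 1.83% and 2.07% (adjusted exact p = 0.682), and neither passed. The gained summits were those of the OE HoxC5 peaks and the shared summits those of the endogenous peaks, so these values compare windows centred by different libraries. Without replicate 1, 2 words passed against the gained sites, and AP-1 was not one of them (adjusted exact p = 0.0526).

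The promoter and distal shared sites differed in their words. AP-1 was at 44 of 339 promoter sites (13.0%) and 311 of 1248 distal sites (24.9%), a difference of −11.9 points (95% interval −16.0 to −7.32, Fisher's exact test, adjusted exact p = 1.12e-05). The RUNX word was at 2 promoter sites (0.590%) and 92 distal sites (7.37%, adjusted exact p = 4.44e-07). The E2-box was at 12.4% and 20.0% (adjusted exact p = 0.00422). The Sp/KLF word was at 10.3% of promoter and 0.881% of distal sites (adjusted exact p = 2.33e-14). Of all 146028 start positions of protein-coding transcripts, 7.81% held the Sp/KLF word and 1.26% held AP-1 within 50 bp. The forkhead word was at 5.60% and 8.57%, a difference that did not pass (adjusted exact p = 0.177). Without replicate 1 none of the 22 words passed between promoter and distal sites by Fisher's exact test, and none had an unadjusted p under 0.05.

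In fold enrichment the shared sites were ordinary peaks of the endogenous lists and strong peaks of the overexpressed lists. The median authors' fold was 4.95 in replicate 1 (range 1.81 to 39.8), beside 4.98 over the whole replicate 1 list. In replicate 2 the median over 129 sites was 5.84 (range 2.83 to 12.1), beside 6.23 over its list. In OE HoxC5 the median was 8.55 (range 2.36 to 51.0), beside 6.17 for all peaks, and in OE Pbx4 9.22 (range 1.54 to 28.4), beside 6.36. Of the shared sites 685 (43.2%) overlapped a peak among the 10% of lowest q of the OE HoxC5 list, and 709 (44.7%) one among the 10% of lowest q of the OE Pbx4 list. A fold from one list is not on the scale of another, since each was computed against its own background.

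**Figure D2:**
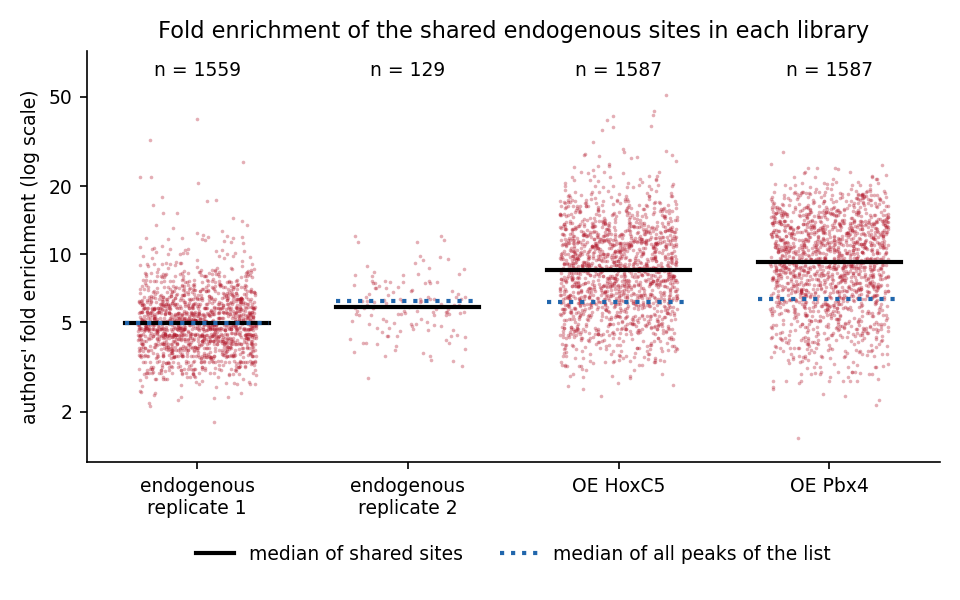
Authors' fold enrichment (y axis, log scale) of every shared site in each library (x axis), one point per site, with the median of the shared sites (solid line) and of all peaks of that list (dotted line). The shared sites lay around the list median in the endogenous libraries and above it in OE HoxC5 (8.55 against 6.17) and OE Pbx4 (9.22 against 6.36).

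The endogenous fold was only weakly related to the fold after overexpression. Across the 1559 sites with a replicate 1 peak, Spearman's rho between the replicate 1 fold and the OE HoxC5 fold was 0.063, and with the OE Pbx4 fold 0.054. Between the OE HoxC5 and OE Pbx4 folds of the 1587 sites it was 0.24, and between the folds of the 101 sites found in both replicates 0.49. These are descriptions across sites that share the same libraries and the same selection. When the sites were cut into 4 classes of equal size by replicate 1 fold, the AP-1 share was even across them, from 21.8 to 23.1%. The E2-box share was lower in each class of lower fold, from 25.1% (95% interval 20.9 to 29.7%) through 19.7% and 15.4% to 13.1% (9.92 to 16.9%). In 4 classes by OE Pbx4 fold, the lowest class stood apart: 44.2% of its sites were at promoters and 13.9% held AP-1, beside 9.82% and 26.2% in the highest class. The part that position had in this was not tested.

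The summits of the lists lay close together. The endogenous and the OE HoxC5 summit were a median of 47 bp apart and within 50 bp of each other at 846 sites (53.3%). The endogenous and the OE Pbx4 summit were a median of 60 bp apart and within 50 bp at 697 sites (43.9%). At the 101 sites in both replicates, the 2 endogenous summits were a median of 33 bp apart. Promoter sites were looser than distal ones, with a median of 62 bp to the OE HoxC5 summit against 44 bp. All 3 peaks shared at least 1 base at 1579 of the sites, with a median common stretch of 182 bp.

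Few sites depended on the threshold of 1 bp, which is described here without a test. The smaller of the 2 overlaps was 100 bp or more at 1488 sites and under 10 bp at 6. Just inside the threshold were a site nearest PAX9 (chr14:37122277-37122429), which overlapped its OE HoxC5 peak by 1 bp, and sites nearest CTNNA3 and ADRM1, with overlaps of 2 bp. Just outside it were a peak nearest MBD6 (chr12:57914485-57914690), for which the nearest OE Pbx4 peak began 9 bp away, and one nearest CCNF, whose gap to an OE HoxC5 peak was 21 bp. Of the 968 peaks not shared, 27 missed the lists by 100 bp or less.

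For a look at replicate 2, the replicate 1 peaks were split by the overlap of their own intervals with both overexpressed lists, so that the replicate 2 list had no part in the split. Of the 1559 replicate 1 peaks that were shared, 101 (6.48%) had a replicate 2 peak, against 34 of the 961 others (3.54%). The difference was 2.94 points (95% interval 1.18 to 4.60, Fisher's exact test, p = 0.00137, adjusted exact p = 0.00205). The shared sites also had lower q-values in replicate 1, with a median −log10 q of 5.33 against 4.21. The difference in replicate 2 cannot be separated from this, and no conclusion is drawn from it. Within the class of 504 replicate 1 peaks with the lowest q, 19.6% of shared and 22.95% of other peaks were in replicate 2, and among replicate 1 peaks with q below the median the difference was 1.66 points and did not pass (exact p = 0.416). Among those with q above the median it was 1.03 points and passed (exact p = 0.0172). The AP-1 share did not follow q in this way: over the 5 classes of q it was 18.5 to 26.9% at shared sites and 3.14 to 9.02% at the others.

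**Figure D3:**
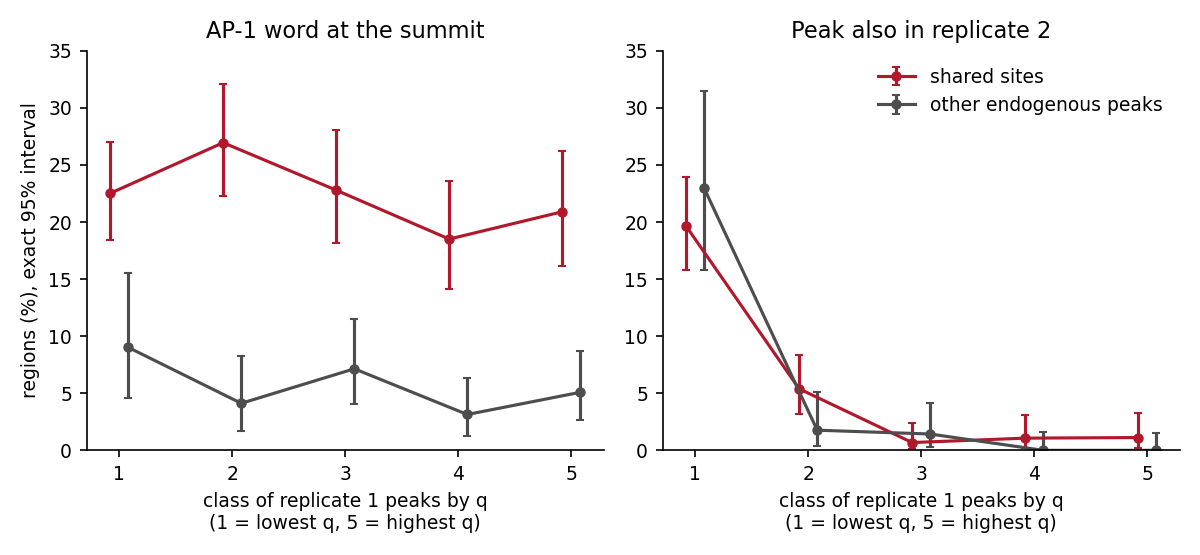
Share of replicate 1 peaks (y axis, percent, with the exact 95% interval) that held the AP-1 word within 50 bp of the summit (left) or had a replicate 2 peak (right), in 5 classes of 504 peaks ordered by replicate 1 q (x axis, class 1 with the lowest q). The AP-1 share of the shared sites was above that of the other endogenous peaks in every class, while in class 1 the replicate 2 share was 19.6% of shared and 22.95% of other peaks, with overlapping intervals.

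The 10 shared sites of lowest q in replicate 1 were also the 10 with the largest sum of −log10 q over both replicates. The first, in an intron of the pseudogene ABCA17P (chr16:2438848-2439217), had a fold of 39.8 in replicate 1 and 12.04 in replicate 2. After overexpression its fold was 7.45 in OE HoxC5 and 10.7 in OE Pbx4, near the median of the shared sites. This is the site with the repeated AP-1 word printed above. The second was 728 bp upstream of an internal TSS of NRP1 (chr10:33553153-33553548), inside the annotated gene (33466420 to 33625190). NRP1 is the gene of neuropilin 1, a co-receptor of semaphorins and VEGF. The folds of this site were even over the 4 libraries: 7.76 in replicate 1, 8.01 in replicate 2, 8.41 in OE HoxC5 and 8.60 in OE Pbx4. With these moderate folds its −log10 q was 91.9 in replicate 1, 41.0 in replicate 2, 126 in OE HoxC5 and 93.9 in OE Pbx4.

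A site in an intron of FARP1 (chr13:99068611-99069097), which encodes a Rac exchange factor, ranked lowest of these 10 in the OE HoxC5 list. Its fold was 32.0 in replicate 1 and 7.51 in replicate 2, but 3.78 in OE HoxC5, where 99.0% of the peaks had a lower q. A site 50.8 kb upstream of TRIQK had folds of 22.1, 11.3 and 3.51 in replicate 1, replicate 2 and OE HoxC5, and 15.6 in OE Pbx4. The site of GMDS-DT and GMDS (chr6:2246436-2246914), 727 bp upstream of GMDS, a gene of GDP-fucose synthesis, also had a low OE HoxC5 fold, with 17.9, 4.32, 3.33 and 4.37 in the same order of libraries.

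Among the rest, the site in an intron of ITPA (chr20:3203423-3203812), an enzyme that clears inosine triphosphate, had folds of 21.9 in replicate 1, 5.49 in replicate 2, 17.6 in OE HoxC5 and 12.1 in OE Pbx4. The site 1100 bp upstream of SLC12A7 (chr5:1113104-1113418), a potassium-chloride cotransporter, had 20.7, 8.60, 11.2 and 14.4. It held an AP-1 word and an E2-box. A site 11.5 kb downstream of a TSS of PXDN (chr2:1628964-1629507) had 17.3, 7.23, 9.58 and 11.0. The site nearest ROBO2 was over 100 kb from a protein-coding TSS, with a replicate 1 fold of 17.4. Of the 10 sites, 7 held an E2-box within 50 bp of the summit and 4 an AP-1 word.

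Promoter sites marked 266 of 20090 protein-coding genes (1.32%), with a shared summit within 1 kb of a TSS. Counting the gene body as well, 827 genes (4.12%) held a shared site. Among the 339 promoter sites, the summit was within 100 bp of the nearest TSS at 152 and upstream of it at 210. TSSs on both strands lay within 1 kb at 71 (20.9%, 95% interval 16.7 to 25.7%). Promoter sites of lowest q at protein-coding genes included NRP1 and GMDS above, PLEKHG3 and PIM1. Those of NRP1 and PLEKHG3 lay inside the gene, upstream of an internal TSS. PIM1, a serine/threonine kinase gene induced by cytokines, had folds of 13.5 in replicate 1, 6.80 in replicate 2, 5.32 in OE HoxC5 and 5.24 in OE Pbx4. Its summit was 96 bp upstream of the TSS, and the Sp/KLF words printed above lay within 50 bp of it, near 1 edge of the window.

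Core histone genes had more promoter sites than any other of the 19 gene lists. Of 58 genes for core histones, the proteins around which nucleosomal DNA winds, 7 had a shared site at the promoter (12.1%, beside 1.32% of all protein-coding genes). They were H4C5, H2BC4, H4C3, H4C8, H4C11, H2BC18 and H2BC5. Of their 7 sites, 6 had a replicate 2 peak, whereas 129 of all 1587 shared sites did. At H4C5 (chr6:26204679-26204982) the summit lay on the TSS and the fold was 12.2 in replicate 1, 12.1 in replicate 2, 13.0 in OE HoxC5 and 5.26 in OE Pbx4. At H4C3 (chr6:26103984-26104458) it was 9.74, 6.36, 18.1 and 7.33. Core histone genes are present in many related copies. The assignment of reads among them rests on the authors' mapping and its quality filter, and it was not tested here. No shared site was at the promoter or in the body of any of 87 genes for cytosolic ribosomal proteins. Of all protein-coding genes, 1.32% had one at the promoter and 4.12% there or in the body. None of the other endogenous peaks was at a promoter of these 87 genes either.

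Among transcription factor genes, shared sites lay at several that belong to the families whose words were found. Of 18 AP-1 genes, 2 had a promoter site (11.1%, beside 1.32% of all protein-coding genes): ATF3 (chr1:212781950-212782123), with a fold of 4.73 in replicate 1, 12.6 in OE HoxC5 and 9.74 in OE Pbx4, and FOSL1 (chr11:65667950-65668125), with 4.80, 6.19 and 4.49. Neither had a replicate 2 peak. Of 20 forkhead genes, 2 had one at the promoter (the same 1.32% being the share of all genes), FOXA1 (3.71 in replicate 1, 5.30 in OE HoxC5 and 11.5 in OE Pbx4) and FOXL1 (4.13, 22.3 and 4.65), and FOXP1 and FOXN3 had sites in introns. Of 39 HOX genes none had a promoter site, and beside 1.32% of all protein-coding genes a count of 0 in so short a list is near that share. HOXA3 and HOXA6 had 1 site within both genes (3.19 in replicate 1, 10.7 in OE HoxC5 and 5.33 in OE Pbx4). It was within 1 kb of a TSS that belonged to none of the 39 genes. These 2 genes were 5.13% of the list, beside 4.12% of all protein-coding genes. Of the TALE class, PBX3 had an intronic site (5.78, 6.81 and 8.995).

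In the TGF-β pathway, in which ligands bind receptor kinases that phosphorylate SMAD proteins, 3 of 22 ligand and receptor genes held a shared site in the gene or at the promoter (13.6%, beside 4.12% of all protein-coding genes). Over the 19 gene lists this share ran from 0 to 20.0%, highest for the forkhead genes, and no list was tested. GDF15, a stress-induced ligand of the family, had 3 of them within 6.25 kb, 1 at the promoter with a replicate 1 fold of 6.73 and 2 in introns with 5.58 and 10.7. The last was also in replicate 2 (fold 3.37), and its folds were 6.58 in OE HoxC5 and 11.5 in OE Pbx4. TGFB2 had 2 intronic sites with −log10 q of 78.2 and 68.9 in OE HoxC5. One of them was in both replicates (fold 4.24 and 6.48) and the other in replicate 2 alone (5.42). BMPR1B had 1 intronic site. Of 23 genes of SMADs and their brakes, SMAD3, a receptor-activated SMAD, had a promoter site (4.40 in replicate 1, 12.3 in OE HoxC5 and 11.0 in OE Pbx4), and SMAD6, an inhibitory one, an intronic site (5.17, 7.72 and 4.18). These 2 genes were 8.70% of that list.

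The remaining lists held 0 to 3 promoter genes each. Of 22 integrin and laminin genes, ITGA3, which had 3 shared sites, and ITGB1 had promoter sites (9.09%, beside 1.32% of all protein-coding genes). LAMA4 and LAMA5 had intronic sites. Counting gene bodies, 18.2% of the list held a site, beside 4.12% of all protein-coding genes. Of 16 genes of the YAP and TEAD pathway, WWTR1, which encodes the co-activator TAZ, had 3 sites, 1 of them at a promoter (fold 3.99 in replicate 1, 15.01 in OE HoxC5 and 8.71 in OE Pbx4). AMOTL1 and TEAD1 had intronic sites, and counting gene bodies 18.75% of that list held a site. Of 34 genes of RNA processing, SNRPD1, TRA2B and SRSF1 had promoter sites (8.82%), and all 3 had an OE Pbx4 fold below 3. Single promoter genes were MAX of 13 genes of the MYC network (7.69%), RB1 of 33 cell cycle genes (3.03%), DDIT3 of 19 genes of p53 and stress (5.26%), and BHLHE40 of 19 circadian genes (5.26%). The share of all protein-coding genes with a promoter site was 1.32%. Of the cell cycle genes, CDK6 also had an intronic site. None of 25 genes of histone deacetylases and corepressors had a shared site at the promoter or in the body, beside 4.12% of all protein-coding genes, and a count of 0 in so short a list is near that share. EGFR and EREG of 11 genes of the EGF receptor family (18.2%), and DNAJB1 of 19 heat shock genes (5.26%), had intronic sites. These counts are small, and no list was tested.

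Some genes carried several shared sites. KCNMA1, a large potassium channel gene of 769 kb, held 8, none at a promoter. NRP1, of 159 kb, held 7, of which 3 were within 1 kb of a TSS. ATP9A, RAD51B and SH3TC2 held 5 each. None of these 5 genes held an endogenous peak that was not shared. In all, 109 genes held 2 or more. Sites within 10 kb of one another formed 100 groups with 218 sites. The largest had 4 sites over 10.3 kb at VMP1 (chr17:57923064-57933411), and groups of 3 lay near FOSL1, GDF15, ITGA3 and LIF, a cytokine of the interleukin 6 family.

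Across chromosomes the shared sites were unevenly spread. They numbered 1.13 per Mb on chromosome 20 and 1.10 on chromosome 17, against 0.0966 on the X chromosome and 0.177 on chromosome 16. The share of endogenous peaks that were shared was lowest on chromosome 16, 16 of 44 (36.4%, 95% interval 22.4 to 52.2%), and highest on chromosome 8, 114 of 151 (75.5%, 67.8 to 82.1%), with chromosome 10 next, 101 of 137 (73.7%, 65.5 to 80.9%). OE Pbx4 peaks numbered 27.2 per Mb on X, 31.1 on chromosome 16 and 62.8 on chromosome 20. They were sparsest on chromosome 22, with 26.6 per Mb, where 61.3% of the endogenous peaks were shared and the shared sites numbered 0.370 per Mb.

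The site upstream of hTERT was one of the shared sites. Its endogenous peak (chr5:1316420-1316702) had its summit 21.3 kb upstream of the hTERT TSS at 1295183, between genes and 5.47 kb from the nearest TSS, that of CLPTM1L. Its fold was 4.27 in replicate 1, with a −log10 q of 5.04, and replicate 2 had no peak there. The fold was 3.57 in OE HoxC5 and 6.04 in OE Pbx4. By replicate 1 q it ranked 826 of 1559, in the middle of the shared sites, and 73.9% of OE HoxC5 peaks had a lower q. The 3 peaks had 252 bp in common, and the endogenous summit was 77 bp from the OE HoxC5 summit and 52 bp from the OE Pbx4 summit. Over the 283 bp of the endogenous peak, the E2-box occurred 2 times, and the Sp/KLF, RUNX and steroid receptor words once each. The AP-1 and Hox-Pbx words searched were not among the letters of this peak. None of 13 shelterin and telomerase genes, hTERT among them, had a shared site within 1 kb of a TSS or in the gene body. The shares of all protein-coding genes were 1.32% within 1 kb of a TSS and 4.12% there or in the body. Finding none in so short a list is near these shares, and the list was not tested.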

How the data were processed

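ChIP-Seq peak lists of 4 libraries from PC-3 cells were analysed, namely HoxC5 in unmodified cells (replicates 1 and 2), HoxC5 in cells overexpressing it and Pbx4 in cells overexpressing it. The 4 input libraries were not analysed here. Per the study's methods, the authors aligned single-end reads to hg19 (BWA-MEM), kept well mapped reads without duplicates, and ran MACS2 with a q limit of 0.05. Each library has its own list, and the lowest −log10 q in it was 1.40 in replicate 1, 1.302 in replicate 2, 2.001 in OE HoxC5 and 1.31 in OE Pbx4, so the OE HoxC5 list ends at a stricter q than the others. The MACS2 version and the control of each call are not given in the sources used here. In the deposited lists each peak carries a score that follows q, a fold enrichment (its ratio over local background), −log10 of its p-value and of its q-value, and the summit position. These are the authors' values and were not recomputed. Read totals are not in the lists, and per-library depth is unknown here. Intervals cover counting error only.

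Intervals were merged over the replicates, and a merged peak took the summit of its replicate 1 peak or, without one, of its replicate 2 peak. Where several peaks of a list overlapped a site, the values of the peak of lowest q were used. Peaks outside chromosomes 1 to 22 and X were left out (5 of replicate 1, 27 of OE HoxC5 and 69 of OE Pbx4). TSSs were all transcript starts of GENCODE 44 lifted to GRCh37, since the annotation the authors used is not given in the sources used here. The 22 words were sought on both strands of GRCh37 within 50 bp of summits, and words of different families can share letters. Shares were compared with two-sided Fisher's exact tests (intervals of differences by Newcombe's method), and summits with their flanks by exact McNemar tests, with Benjamini-Hochberg adjustment over the 22 words or the 3 shares. The tests were tested on simulated data.

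The sites, words and gene lists were chosen with earlier results of these data known. Named were the 10 sites of lowest q in replicate 1 and over both replicates, list genes with a promoter site (up to 6 a list by q), the 5 genes with most sites, the hTERT site and sites at the edge of the rule. The other sites at list genes, the groups of sites, the word pairs, the fold classes and the chromosomes were described after their values were seen. Alternatives were stricter filters and overlaps, other TSS distances, windows and flanks, and each replicate left out. Tests used scipy 1.17.1 and statsmodels 0.14.6 in Python 3.11.15. Tables were read with pandas 2.3.3 and numpy 2.4.6, bases with pysam 0.24.0, and figures drawn with matplotlib 3.10.9. Results that need items withheld from this text are not reported here.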

Additional observations from a re-analysis of the deposited data

How the results depend on the processing

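The lower promoter share of the shared sites than of the other endogenous peaks kept its direction and passed under every alternative run. The number of sites depended on the strength asked of the overexpressed lists: the share of endogenous peaks that were shared was 61.8% at a q of at most 0.01, 57.7% (1473 sites) with at least 50% of the interval overlapped and 57.7% (1475) with the summit inside both peaks, 46.5% at a fold of at least 5, 25.8% with the 20000 and 8.26% with the 5000 peaks of lowest q of each overexpressed list. The small promoter difference from the gained sites fell to 1.32 points (50% overlap, exact p = 0.207) and 1.59 points (fold, exact p = 0.270). The replicate 2 difference was 1.46 points when a replicate 2 peak had to cover 50% of the replicate 1 peak (exact p = 0.0799) and 1.66 points among replicate 1 peaks with q below the median (exact p = 0.416). It passed when the overexpressed lists had to cover 50% of the replicate 1 peak (2.69 points, exact p = 0.00307) and with q above the median (1.03 points, exact p = 0.0172). The cause of these losses was not tested.

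With 25 bp either side of the summit, 5 words passed against the flank (8 in the reported test), 6 against gained sites (10) and 4 between promoter and distal sites (7), and with 100 bp 11 passed in the last. Sites in both replicates alone gave 2 against the flank, with fewer sites. Against the other endogenous peaks 4 words passed (10 in the reported test) within 1 kb of a TSS and 4 beyond it, and against gained sites 5 passed beyond it. CACGTG reversed against the flank at sites in both replicates (−2.97 points). TGTGGTT reversed within 1 kb of a TSS, by −1.01 points against other endogenous peaks and −2.08 points against gained sites (adjusted exact p = 0.0409). CCGGAAG and CACGTG reversed beyond 1 kb (0.716 and 0.0647 points against other endogenous peaks). With 1 replicate left out, differences ran from −1.56 to 1.67 points for CACGTG against the flank, −2.28 to 1.56 for CCGGAAG against other endogenous peaks, and −1.46 to 1.22 for CACGTG and −2.18 to 0.448 for TGACAG against gained sites, the reversed sign each time without replicate 1.

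Replicate 1 supplied nearly all sites. Leaving out 1 replicate gave a member share of 61.9 to 75.3%, 128 sites remaining without replicate 1, and promoter genes from 0.114 to 1.30%. The words that passed numbered 3 to 8 against the flank, 1 to 9 against other endogenous peaks, 2 to 11 against gained sites and 0 to 7 between promoter and distal sites (Fisher's exact test, the 0 without replicate 1, where none had an unadjusted p under 0.05 either), the lower number always without replicate 1. The share of promoter genes was 1.09% at 500 bp, 2.44% at 5 kb and 1.10% with 50% overlap. No paired analysis was possible because the replicate numbers that groups share are those of the endogenous ChIP and input libraries, and no values of the input libraries were used.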
